A study of Canis lupus familiaris with 33 samples.

Results

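The collagen-rich and the collagen-poor tumors are the 10 highest and the 10 lowest of 29 canine invasive urothelial carcinomas (iUC), ranked on the mean of 4 stromal genes, COL1A1, COL1A2, DCN and LUM. Both groups were thus chosen by measured values of the same libraries, and these 4 genes were left out of every test. The other 9 tumors lie in between and were described beside the 2 groups, as were 4 normal samples. A p-value for any other gene therefore says how that gene moved with the 4 scoring genes in these tumors.

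COL1A1 and COL1A2 encode the chains of type I collagen, the main fibrous protein of connective tissue. DCN (decorin) and LUM (lumican) are small leucine-rich proteoglycans that coat collagen fibrils and limit their thickness. In the bladder wall these proteins are made by fibroblasts of the lamina propria beneath the urothelium, and the muscle layer under it adds elastic fibers and its own collagen sheaths. Carcinomas recruit such cells into a stroma whose amount varies from tumor to tumor.

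All tumors were high-grade iUC taken by cystoscopic biopsy from dogs that had received no treatment, 1 tumor from each dog, and were described as almost entirely epithelial in cellularity. Dogs of any age, sex or breed were included. The sources used here do not give these or the genotype for single dogs, so whether they differ between the groups is unknown. The normal samples were urothelial layer dissected from the bladders of dogs without bladder disease. All samples were total RNA depleted of ribosomal RNA and sequenced in 1 batch. The deposited log2 values are centred gene by gene on the median of the samples, so a value of 0 is the median sample, and levels of different genes cannot be compared. In bulk RNA, fewer cells of a type and less RNA per cell cannot be told apart.

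The 4-gene mean ran from 0.37 to 2.32 in the collagen-rich tumors, with a median of 1.12, and from -2.31 to -0.53 in the collagen-poor tumors, with a median of -1.16. The ranking had no gap at either limit. The lowest collagen-rich tumor stood at 0.367 and the next tumor outside at 0.357, while the highest collagen-poor tumor stood at -0.528 and the next outside at -0.514. COL1A1 averaged 1.33 ± 0.87 (SD, n = 10) in collagen-rich and -1.34 ± 0.94 in collagen-poor tumors. DCN averaged 1.36 ± 0.94 against -1.40 ± 0.89. The 4 normal samples lay above every tumor, with means of the 4 genes from 2.56 to 3.25.

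**Figure D1:**
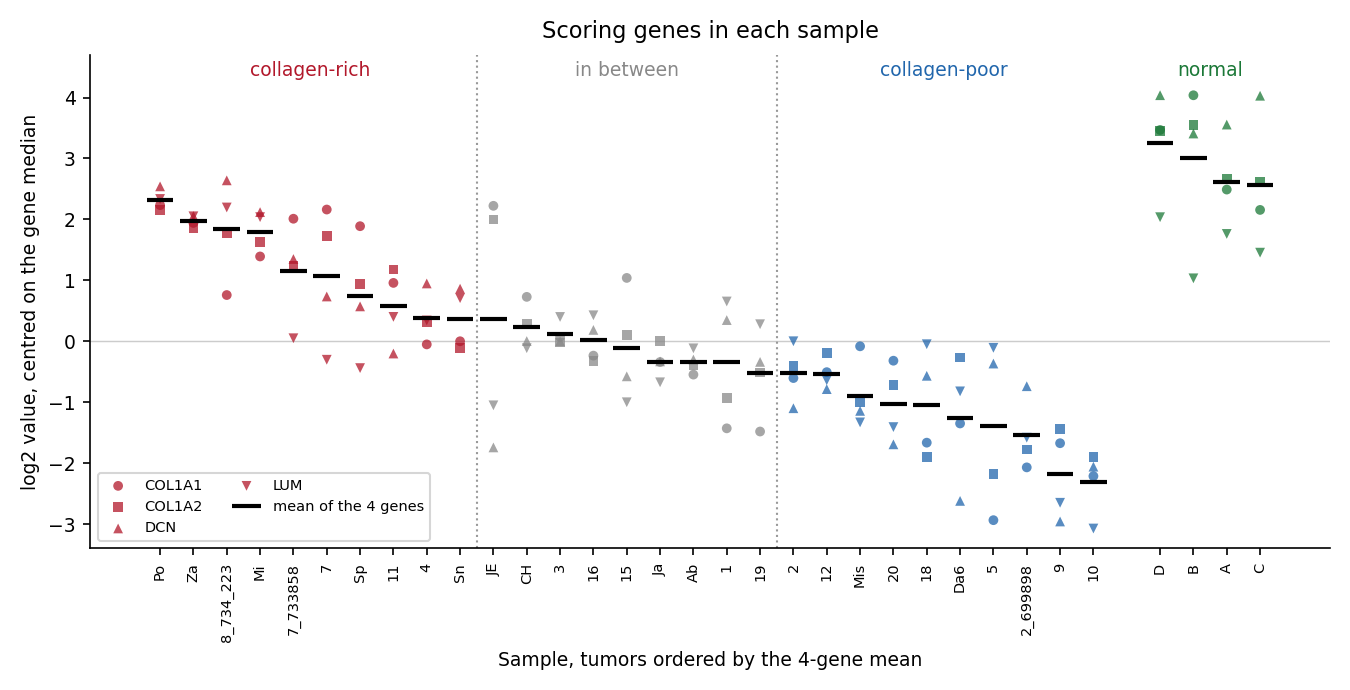
Log2 values of the 4 scoring genes (y axis, centred on each gene's median) in every tumor, ordered by their mean (x axis), and in the 4 normal samples. The black bar is the 4-gene mean, which falls from 2.32 to -2.31 with no gap at the group limits, and tumor JE joins high COL1A1 and COL1A2 with low DCN and LUM.

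The scoring genes formed pairs. Over the 29 tumors COL1A1 and COL1A2 had a Pearson r of 0.93 and DCN and LUM of 0.88, while r between the pairs ran from 0.47 to 0.64; these genes share libraries and depth. Leaving COL1A1 or COL1A2 out of the mean kept all 20 tumors in their groups. Leaving out DCN exchanged 2 tumors in each group.

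Total counts cannot be read from these values. Between 4189 and 7344 genes lay at the lowest value that samples share in a collagen-rich tumor and between 3699 and 8175 in a collagen-poor one, against 755 to 1019 in a normal sample. On the linear scale this shared lowest value was taken as 1, which the centred values cannot show. Olfactory receptor genes, taken as genes not expected in bladder, served as a measure of background reads. Whether their share follows such reads, sequencing depth or expression in bladder was not tested. The median tumor had 21.2% of 137 such genes above the lowest value, and 6 tumors stood apart, more than 3 median absolute deviations away. Of these 6, 2 were collagen-rich (86.9% and 47.4%), 3 collagen-poor (92.0%, 77.4% and 41.6%) and 1 lay in between (59.9%). All 137 genes were above it in each normal sample. Of 50 named genes called higher, 15 kept the call without these 6 tumors and 35 lost it.

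Collagen-rich tumors differed from collagen-poor ones almost only in one direction. Of 19234 genes tested, 249 were higher in collagen-rich tumors (1.29%) and 1 was lower (0.00520%). A gene was called where its adjusted p did not exceed 0.05 and the groups differed 2-fold or more. At an unadjusted p under 0.05 the split was 1406 higher and 630 lower. The 249 genes had a median log2 difference of 2.02, or 4.05-fold, and a range from 1.03 to 3.79, while the median over all genes tested was 0.01. In 17 of the 249 every collagen-rich tumor lay above every collagen-poor tumor, and these were the 17 such genes among all tested (0.0884%). None of the 249 was at the lowest value in all collagen-poor tumors, but 40 were there in at least 1, and for these the fold depends on that lowest value. Without the 6 tumors that stood apart, 8 against 7 tumors remained and 49 genes were called higher, 48 of them among the 249. The 249, which were picked with those tumors included, then had a median of 1.90.

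Among genes with a symbol, COL6A5, a chain of type VI collagen, rose most, by 3.79 ± 0.73 (SE) on the log2 scale (adjusted p = 0.00792). Its values ran from -0.95 to 4.44 in collagen-rich tumors (median 1.31) and from -3.88 to 0.43 in collagen-poor ones (median -2.40). The ranges overlap, with 8 of 10 collagen-rich tumors above every collagen-poor one. Without the 6 tumors that stood apart the rise was 3.77 and COL6A5 no longer passed (adjusted p = 0.087).

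C6, a terminal complement component, ran from -0.03 to 2.13 in collagen-rich tumors (median 1.63) and from -4.80 to 0.00 in collagen-poor ones (median -1.81). It rose by 3.66 ± 0.51 (adjusted p = 0.00053), and only the lowest collagen-rich tumor entered the collagen-poor range. ADAMDEC1, a secreted metalloprotease known from fibroblasts and macrophages of the gut, ran from 0.45 to 3.55 (median 1.92) against -4.03 to 0.26 (median -1.78). All 10 collagen-rich tumors lay above every collagen-poor one, with a rise of 3.64 ± 0.49 (adjusted p = 0.000441). C6 rose by 3.60 and ADAMDEC1 by 3.30 without the 6 tumors, and both passed.

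ELN, the gene of elastin, which gives the bladder wall its recoil, ran from 0.20 to 2.53 in collagen-rich tumors (median 1.66) and from -3.10 to -0.34 in collagen-poor ones (median -1.67). It rose by 3.23 ± 0.37 (adjusted p = 0.000124) and the groups did not overlap. ELN rose by 2.78 and passed without the 6 tumors. The in-between tumors averaged -0.74 ± 1.22 (n = 9) and the normal samples 4.93 ± 0.57 (n = 4).

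The other genes among the 10 largest rises were CPXM1 (3.57 ± 0.47), an inactive carboxypeptidase of the matrix, SMOC2 (3.50 ± 0.61), a calcium-binding matrix protein, and the growth factor PTN (3.43 ± 0.60). They were joined by the receptor phosphatase PTPRD (3.36 ± 0.51), the peptide hormone CCK (3.22 ± 0.50) and the matrix protease ADAMTS8 (3.14 ± 0.61). Adjusted p-values of these 6 ran from 0.000411 to 0.00802. CCK was at the lowest value in 7 of 10 collagen-poor tumors, PTN in 5 and ADAMTS8 in 4, so their folds rest on that value. CPXM1, PTN and PTPRD kept their calls without the 6 tumors that stood apart, and SMOC2 (3.01, adjusted p = 0.0809), CCK (2.86, adjusted p = 0.0625) and ADAMTS8 (3.29, adjusted p = 0.0991) did not. With the shared lowest value taken as 1 and 8 such units added before the log, ADAMTS8 rose by 1.44 and no longer passed.

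The only gene lower in collagen-rich tumors was FAM83G, a scaffold protein that binds casein kinase 1. It ran from -1.56 to 0.44 in collagen-rich tumors (median -0.86) and from -0.34 to 1.14 in collagen-poor ones (median 0.44), a fall of 1.08 ± 0.24 on the log2 scale that the overlapping groups show (adjusted p = 0.0207). Without tumor Po the difference was -0.98, short of 2-fold, and the gene was no longer called, and without the 6 tumors that stood apart it was -0.90 (adjusted p = 0.202). FAM83G was not among the genes called lower with 7 against 7 or 14 against 14 tumors, with a slope over 29 tumors or with the leukocyte covariate.

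The counts of called genes in the lists below stand beside 1.29% called higher over all genes tested. None of the 5 other fibrillar collagens tested passed (median 0.43), with all 5 differences above 0 and COL24A1 at 1.79 ± 0.45 (adjusted p = 0.0523). COL24A1 was called on leaving out any 1 of 4 tumors, with differences from 1.91 to 2.05. COL5A1, whose product nucleates type I fibrils, differed by 0.91 ± 0.29 (adjusted p = 0.161). It ran from -0.60 to 1.39 in collagen-rich and from -1.53 to 0.23 in collagen-poor tumors, with 6 of 10 collagen-rich tumors above every collagen-poor one. COL3A1 and COL5A2 were not analysed here.

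Of 14 beaded, fibril-associated and short-chain collagens, 5 were higher and none lower, with a median difference of 1.11. COL6A3, a further chain of type VI collagen, which links cells to the fibrils around them, ran from 0.32 to 2.94 in collagen-rich tumors (median 1.20) and from -2.42 to 0.00 in collagen-poor ones (median -0.93). The groups did not overlap, and the rise was 2.38 ± 0.37 (adjusted p = 0.00119), or 1.97 and still called without the 6 tumors. COL14A1 and COL12A1, which decorate the surface of type I fibrils, rose by 2.98 ± 0.47 and 2.04 ± 0.48, and COL16A1, of the same class, by 2.19 ± 0.40. COL21A1 (1.35, adjusted p = 0.264) and COL19A1 (1.21, adjusted p = 0.596) did not pass, though COL21A1 did without collagen-poor tumor Da6 (1.66). The call of COL12A1 was lost on leaving out 12 of the 20 tumors in turn, with differences between 1.90 and 2.35. Without the 6 tumors that stood apart, 2 of the 14 were called.

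Of 19 basement membrane collagens and laminins, the sheet under epithelia and around muscle and vessels, 3 were higher (median 1.16), and 1 was without the 6 tumors. LAMA2, the laminin chain of muscle and nerve sheaths, rose by 2.55 ± 0.37 (adjusted p = 0.000842), with 9 of 10 collagen-rich tumors above every collagen-poor one. NID1, the nidogen that joins laminin to type IV collagen, rose by 1.77 ± 0.39 (adjusted p = 0.0205), and LAMA1 by 1.64 ± 0.37 (adjusted p = 0.0262). NID1 and LAMA1 lost their calls without tumor Po, at 1.64 and 1.53, and LAMA1 also without any 1 of 5 further tumors. COL4A4 (2.02, adjusted p = 0.12) and LAMC3 (1.97, adjusted p = 0.0633) did not pass, though LAMC3 did without any 1 of 5 tumors (2.07 to 2.15). The transmembrane collagens COL13A1 (1.84 ± 0.64) and COL23A1 (1.72 ± 0.60) did not either.

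Of 25 enzymes and cofactors that process and cross-link collagen, 4 were higher (median 0.36), and 1 was without the 6 tumors. PCOLCE, which speeds removal of the collagen C-propeptide, rose by 1.81 ± 0.30 (adjusted p = 0.00191), with 9 of 10 collagen-rich tumors above every collagen-poor one. LOX, the lysyl oxidase that starts cross-linking, rose by 1.78 ± 0.27 (adjusted p = 0.00112), again with 9 of 10. The propeptidases ADAMTS2 and ADAMTS14, which cut off the N-propeptide, rose by 1.93 ± 0.40 and 1.78 ± 0.42, the latter losing its call in 12 of 20 leave-outs. FKBP10 (1.37, adjusted p = 0.0717) and LOXL2 (1.18, adjusted p = 0.121) did not pass, though FKBP10 did without any 1 of 3 tumors (1.48 to 1.53). LOX reached 3.75 in the normal samples against -0.77 in the in-between tumors, whereas LOXL2 stood at -0.73 and 0.58.

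Matrix glycoproteins and elastic fiber genes had the most calls by number of the lists examined, some of which share genes. Of 38 tested, 16 were higher (42.1%, beside 1.29% of all genes tested) and none lower. The share was larger for fibroblast markers (48.3%) and smooth muscle genes (44.4%). All 38 differences of the matrix glycoprotein list were above 0, with a median of 1.62 beside 0.01 over all genes tested. After SMOC2 and ELN the largest were HAPLN1 (2.91 ± 0.60, adjusted p = 0.0122), which links hyaluronan to proteoglycans, and VCAN (2.78 ± 0.46, adjusted p = 0.00195), the large proteoglycan versican. VCAN ran from -0.86 to 4.09 in collagen-rich tumors and from -2.45 to -0.16 in collagen-poor ones. Only 1 collagen-rich tumor lay within the collagen-poor range. THBS4 differed by 3.08 ± 0.91 and LTBP2 by 1.86 ± 0.74 without passing (adjusted p = 0.116 and 0.304). Without collagen-rich tumor 11 both were called (3.60 and 2.41), as was THBS4 without Da6 (3.53). The list kept 4 calls without the 6 tumors that stood apart, with a median of 1.47.

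Of 9 small leucine-rich proteoglycans other than DCN and LUM, 2 were higher (median 0.55), none of them without the 6 tumors, and all 9 differences were above 0. KERA (keratocan), best known from the cornea, ran from -0.44 to 2.28 (median 0.44) against -3.84 to 0.00 (median -1.98) and rose by 2.47 ± 0.48 (adjusted p = 0.0082). ECM2 rose by 1.06 ± 0.25 and lost its call in 11 of 20 leave-outs. ASPN (asporin) and PODN (podocan) each differed by 0.80, with no collagen-rich tumor above every collagen-poor one.

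Of 31 matrix proteases and their inhibitors, 4 were higher (median 0.49), and 1 was without the 6 tumors. They were ADAMTS8, the stromal metalloprotease MMP23B (3.11 ± 0.53), SERPINF1 (2.68 ± 0.36), which encodes an antiangiogenic serpin, and TIMP3 (1.70 ± 0.39), a metalloprotease inhibitor held in the matrix. TIMP3 lost its call in 6 of 20 leave-outs. MMP2, the gelatinase of stromal cells, differed by 2.01 ± 0.51 (adjusted p = 0.0527), with 4 of 10 collagen-rich tumors above every collagen-poor one, and HTRA3 by 1.89 ± 0.64. Both were called without tumor 11 (2.12 and 2.29), and MMP2 also without any 1 of 3 others.

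**Figure D2:**
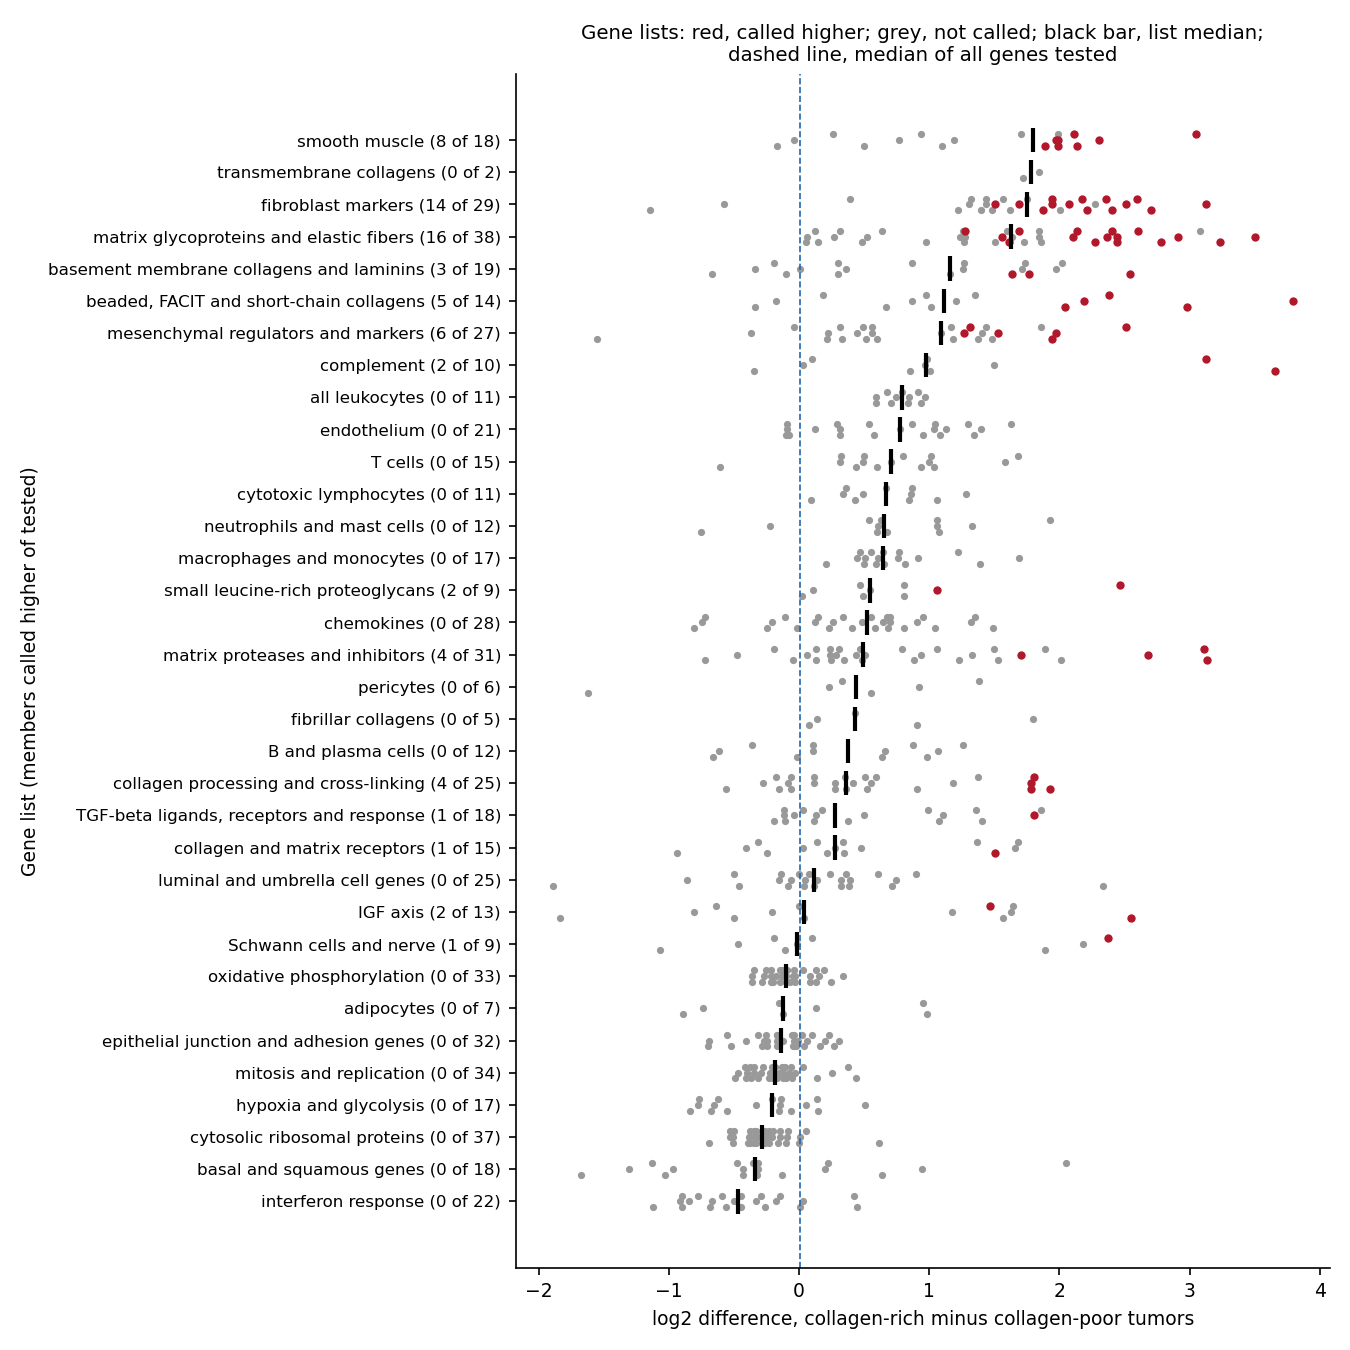
Log2 difference between collagen-rich and collagen-poor tumors (x axis) for each member of each gene list (rows, with the members called higher of those tested), ordered by the list median, CYC1 left out. Matrix glycoproteins (16 of 38), fibroblast markers (14 of 29) and smooth muscle genes (8 of 18) hold most called members, and no member of any list is called lower.

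Fibroblast markers outside the score were called higher in 14 of 29 cases and lower in none, with a median of 1.76, and without the 6 tumors that stood apart 3 were called, with a median of 1.59. C7, a complement component made by stromal cells, rose by 3.13 ± 0.51 (adjusted p = 0.00177) and SCARA5, a ferritin receptor of resident fibroblasts, by 2.70 ± 0.42 (adjusted p = 0.00122). MEDAG, a gene of mesenchymal and fat precursor cells, rose by 2.60 ± 0.37, and TCF21, a transcription factor of mesenchymal precursors, by 2.51 ± 0.42. In SCARA5, MEDAG and TCF21 9 of 10 collagen-rich tumors lay above every collagen-poor one. PDGFRB, a receptor of fibroblasts and pericytes, rose by 1.95 ± 0.43 (adjusted p = 0.0201), though by 1.82 and not past the threshold without tumor Po. THY1 differed by 1.31 ± 0.41 (adjusted p = 0.142), with collagen-poor tumor Da6, at 2.07, above every collagen-rich one. Without Da6 it was called higher (1.63, adjusted p = 0.00377). FGF10 (2.27, adjusted p = 0.0594) and PI16 (2.01, adjusted p = 0.265) did not pass, though FGF10 did without Da6 (2.60) or tumor 11 (2.49). PDGFRA and FAP were not analysed here.

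Of 18 ligands, receptors and response genes of the TGF-beta pathway, a main inducer of collagen synthesis, 1 was higher (5.56%, beside 1.29% of all genes tested), CTGF (1.80 ± 0.40, adjusted p = 0.0209), a matricellular response gene whose call was lost without tumor Po (1.72). The list median was 0.28. BAMBI, a decoy receptor, differed by 1.40 ± 0.45 (adjusted p = 0.161). Of 15 receptors that bind collagen and other matrix, 1 was higher, MRC2 (1.50 ± 0.36), the endocytic receptor that takes up collagen fragments. Its call was lost in 13 of 20 leave-outs. Neither list had a call without the 6 tumors that stood apart. The integrin chains ITGB8 (1.68) and ITGA8 (1.66) did not pass.

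Of 18 smooth muscle genes tested, 8 were higher, with a median of 1.80, and 2 were without the 6 tumors that stood apart. MYOCD (myocardin), the coactivator that switches on contractile genes, rose by 3.05 ± 0.49 (adjusted p = 0.00161), with 9 of 10 collagen-rich tumors above every collagen-poor one. TAGLN (transgelin), an actin-binding protein, ran from 0.18 to 3.23 (median 0.79) against -1.96 to 0.00 (median -1.26). The groups did not overlap and the rise was 2.30 ± 0.36 (adjusted p = 0.00127), but 2.17 and no longer called without the 6 tumors (adjusted p = 0.0613). KCNMB1, a subunit of the muscle potassium channel, rose by 2.14 ± 0.48 (kept in 16 of 20 leave-outs), PGM5 by 2.11 ± 0.44 and TPM2 by 1.99 ± 0.42. MYH11, the smooth muscle myosin heavy chain, ran from 0.00 to 4.79 (median 1.16) against -0.93 to 0.19 (median -0.57) and stood at the limit (1.99 ± 0.50, adjusted p = 0.0499), losing its call in 15 of 20 leave-outs. ACTG2 (1.70, adjusted p = 0.0986) and PLN (1.99, adjusted p = 0.0993) did not pass, though PLN did without tumor Sn (2.23).

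**Figure D3:**
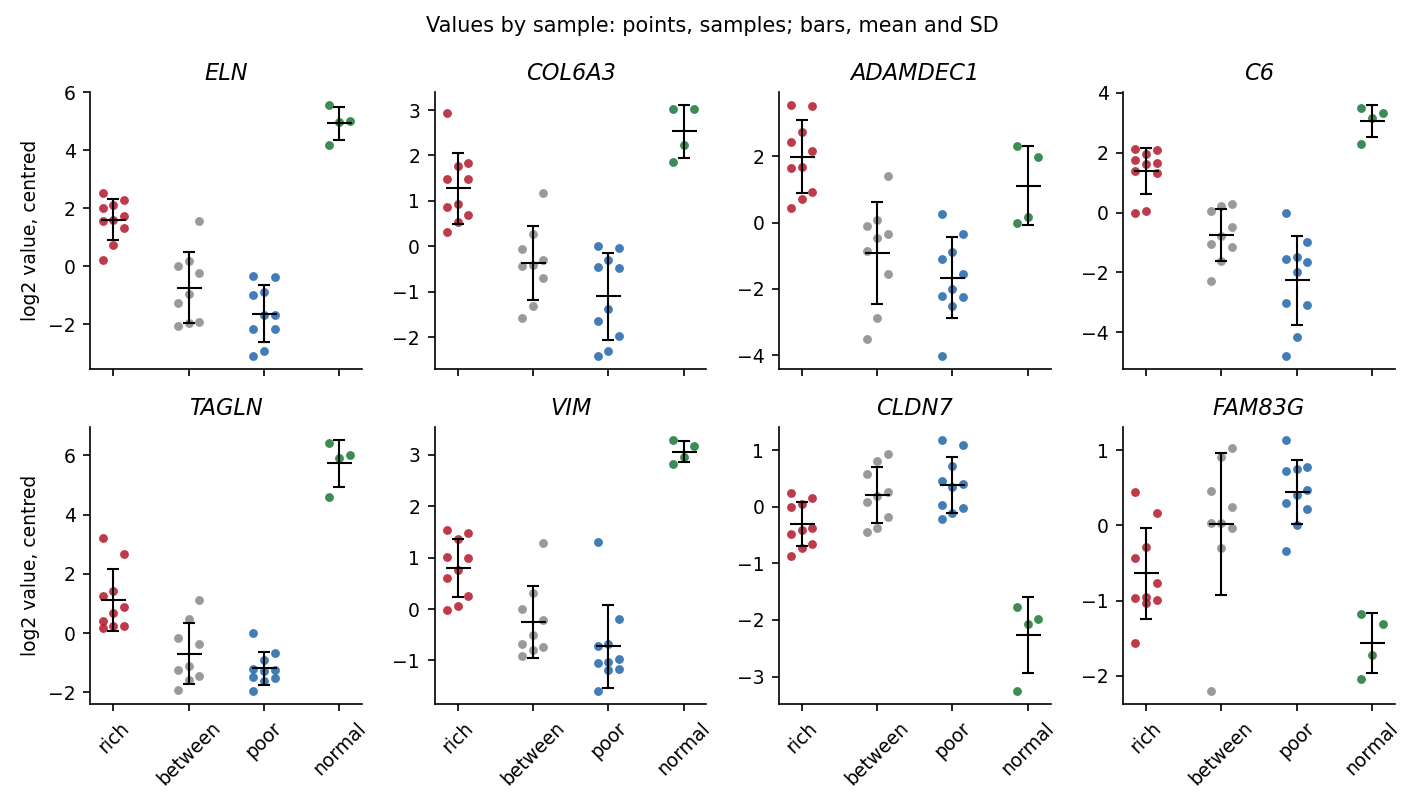
Log2 values (y axis, centred on the gene median) of 8 genes in every sample by group (x axis), with mean and SD. ELN, COL6A3, ADAMDEC1 and TAGLN do not overlap between collagen-rich and collagen-poor tumors, whereas CLDN7, which did not pass, and FAM83G do.

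The mean of the smooth muscle list ran from -0.44 to 2.67 in collagen-rich tumors and from -1.26 to 0.01 in collagen-poor ones, and over the 29 tumors its r with the 4-gene mean was 0.65. It was highest, at 2.67 and 2.12, in 2 collagen-rich tumors. In the normal samples, labelled as urothelial cells, it ran from 3.90 to 5.59. With this mean as a covariate 0 genes passed in limma, and 1444 had an unadjusted p under 0.05. Of the 249 genes called without it, 248 then kept a positive difference, with a median of 1.47, and 180 had an unadjusted p under 0.05. MYH11, itself in the covariate, turned to -0.06. The part of muscle tissue in the other results was not tested beyond these values.

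**Figure D4:**
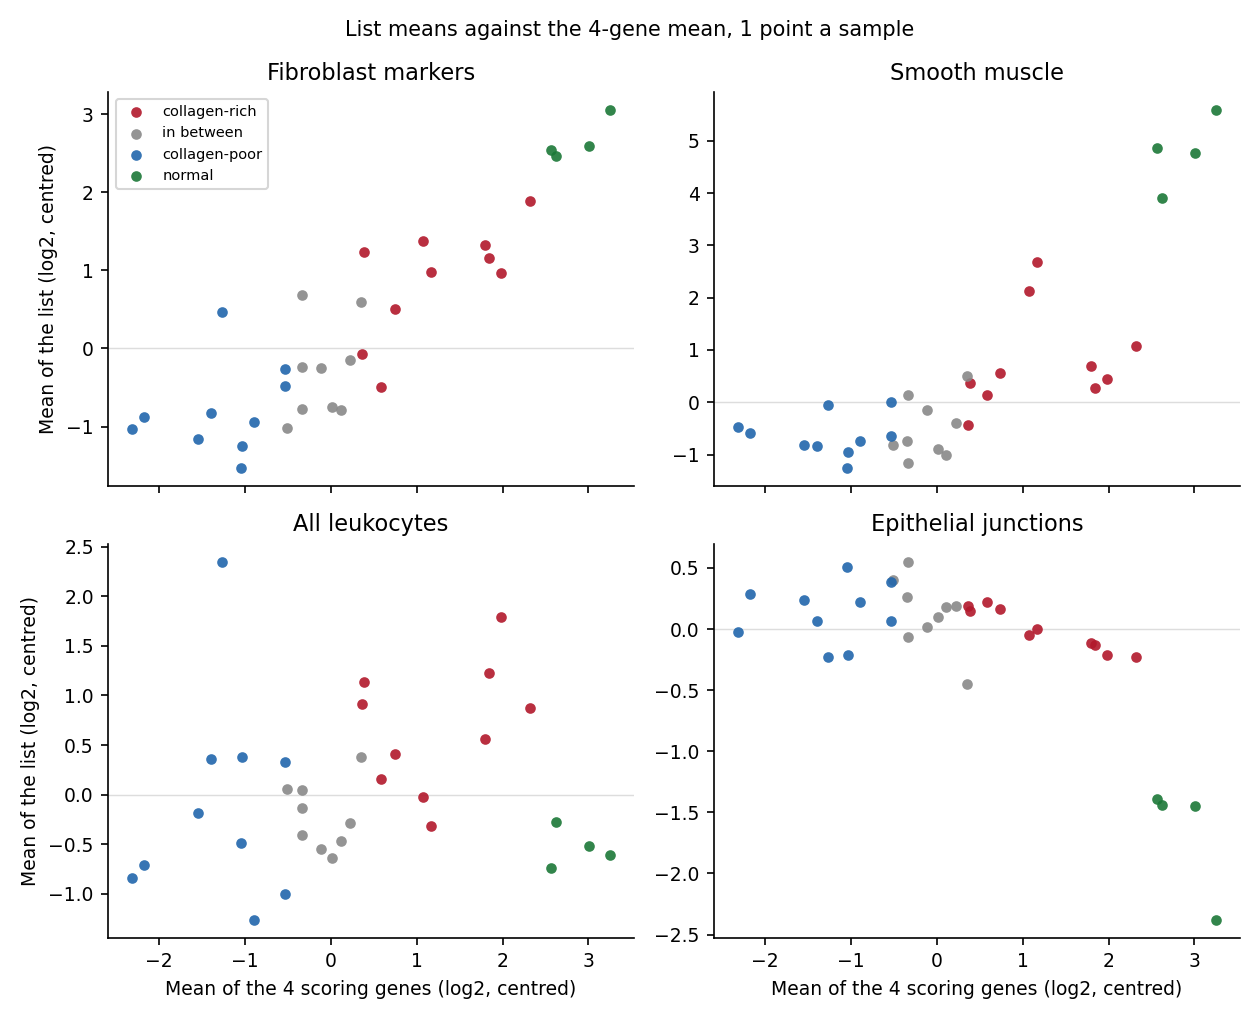
Mean of 4 gene lists (y axes, log2, centred) against the mean of the 4 scoring genes (x axes) in each sample, coloured by group. Fibroblast and smooth muscle means rise with the score (r = 0.80 and 0.65 over 29 tumors), leukocyte means less so (r = 0.43), and the epithelial junction mean is lowest in the normal samples.

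Beside the 1.29% of all genes tested, lists this short hold about 0 called genes, so a count of 0 says little about the lists of vessel, immune and epithelial genes that follow. Of 21 endothelial genes none passed (median 0.78), with PECAM1 at 1.08 ± 0.40 (adjusted p = 0.262) and CDH5, the endothelial cadherin, at 1.13 ± 0.44 (adjusted p = 0.3). KDR, a receptor for VEGF, differed by 0.53 ± 0.48. Leaving out collagen-poor tumor Da6 gave 4 called endothelial genes, PECAM1 among them (1.36, adjusted p = 0.0249), leaving out Sn gave 2 and leaving out tumor 2 gave 1. The list mean ran from -0.58 to 1.04 in collagen-rich and from -1.39 to 1.24 in collagen-poor tumors. None of 6 pericyte genes passed (median 0.44), MCAM differing by 1.39 ± 0.50 and NDUFA4L2 by -1.62 ± 0.88. Of 9 Schwann cell and nerve genes 1 was higher, SNAP25 (2.37 ± 0.54, adjusted p = 0.0241), a synaptic release protein that was at the lowest value in 5 collagen-poor tumors and lost its call in 4 of 20 leave-outs. The glial markers CDH19 (2.18, adjusted p = 0.245) and SOX10 (-1.07, adjusted p = 0.424) pointed apart. None of 7 adipocyte genes passed (median -0.125), and 3 of 7 differences were above 0. CFD (0.98) and LPL (0.95) were highest, and the marker PLIN1 differed by -0.152.

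All 11 pan-leukocyte genes had a positive difference, between 0.59 and 0.97 (median 0.79), but none passed. Leaving out collagen-poor tumor Da6 gave 3 called and a median of 1.08. PTPRC, the common leukocyte antigen CD45, ran from -0.68 to 1.85 in collagen-rich tumors (median 0.65) and from -1.42 to 2.62 in collagen-poor ones (median -0.22), a difference of 0.67 ± 0.42 (adjusted p = 0.622). The highest value was that of collagen-poor tumor Da6, and the next lay in collagen-rich tumors. The mean of the 11 genes was 2.35 in collagen-poor tumor Da6, with the other 9 collagen-poor tumors at or below 0.38, and from -0.31 to 1.79 in collagen-rich tumors. Without Da6, 427 genes were called higher in collagen-rich tumors. With the leukocyte mean as a covariate 152 were, 140 of them among the 249.

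Medians of the lineage lists were 0.71 for T cells (15 genes), 0.67 for cytotoxic lymphocytes (11), 0.65 for macrophages and monocytes (17) and 0.37 for B and plasma cells (12). For neutrophils and mast cells (12) it was 0.65. None of their members passed. CD3E differed by 1.02 ± 0.74, CD6 by 1.68 ± 0.71, CSF1R by 0.77 ± 0.27, CCR2 by 1.69 ± 0.61 and the mast cell protease CPA3 by 1.92 ± 0.73 (adjusted p = 0.243 to 0.694). Leaving out Da6 gave 2 called macrophage and monocyte genes, CCR2 among them (2.14, adjusted p = 0.0152). JCHAIN, of plasma cells, differed by -0.66 ± 1.43 and MS4A1, of B cells, by 0.88 ± 1.26, and both were highest in collagen-poor tumor Da6 (8.77 and 5.69). Without Da6 the differences were 0.13 and 1.59.

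Of 10 complement genes 2 were higher, C6 and C7, and both stayed called without the 6 tumors that stood apart. SERPING1, the inhibitor of the first complement complex, differed by 1.50 ± 0.38 (adjusted p = 0.0538, but called without any 1 of 4 tumors, at 1.57 to 1.69) and CD59 by 1.00 ± 0.40. None of 28 chemokines and cytokines passed (median 0.52), with IL11 at 1.49 ± 0.70 and CCL20 at 1.35 ± 1.26. None of 22 interferon response genes passed either. Their median was -0.47, with 4 of 22 above 0, IFIT1 at -1.12 ± 1.00 and OAS3 at -0.92 ± 0.46. The median was 0.04 without the 6 tumors that stood apart.

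Of 32 epithelial junction and adhesion genes none passed. Their median was -0.14, with 9 above 0 against 51.5% of all genes tested, and over the 29 tumors their mean had an r of -0.38 with the 4-gene mean. CLDN7, a claudin of tight junctions, ran from -0.87 to 0.25 in collagen-rich tumors (median -0.39) and from -0.21 to 1.19 in collagen-poor ones (median 0.37), a difference of -0.70 ± 0.20 (adjusted p = 0.114). CDH1, the epithelial cadherin, differed by -0.52 ± 0.22 (adjusted p = 0.361). The epithelial adhesion molecule EPCAM differed by 0.31 ± 0.34.

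None of 25 luminal and umbrella cell genes passed (median 0.11). The uroplakins UPK1A, UPK2 and UPK3A, plaque proteins of umbrella cells, differed by 0.90 ± 0.49, -0.06 ± 0.31 and 0.36 ± 0.32, and the luminal regulator GATA3 by 0.05 ± 0.23. UPK1A differed by 0.46 without collagen-poor tumor Da6, which stood at -4.65. BHMT (2.34 ± 0.86) and GPX2 (-1.89 ± 0.69) had the largest differences of that list. None of 18 basal and squamous genes passed (median -0.34). TRIM29 differed by -1.67 ± 0.51 (adjusted p = 0.126), the elastase inhibitor PI3 by 2.05 ± 1.06 and KRT14, a basal keratin, by -1.31 ± 1.16, with collagen-poor tumor Da6 at 9.54 and a difference of -0.40 without it. KRT5, TP63, KRT8 and KRT18 were not analysed here.

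Mesenchymal regulators and markers, several of which epithelial tumor cells can also express, included 6 higher genes of 27 (median 1.09). VIM (vimentin), the intermediate filament of mesenchymal cells, ran from -0.01 to 1.53 (median 0.87) in collagen-rich tumors and from -1.60 to 1.31 in collagen-poor ones and rose by 1.53 ± 0.30 (adjusted p = 0.00935). Its highest collagen-poor value was that of tumor Da6, and the next was -0.19, below every collagen-rich tumor. CALD1 (caldesmon) rose by 1.97 ± 0.36, TCF21 as above, and TWIST2, a fibroblast transcription factor, by 1.94 ± 0.47, at the lowest value in 4 collagen-poor tumors and kept in only 6 of 20 leave-outs. TSHZ3 (1.86, and 2.06 and called without tumor Sn) and FOXC2 (-1.55 ± 0.50, adjusted p = 0.161) did not pass. None of the 27 was called without the 6 tumors that stood apart, where the median was 0.75.

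Among 13 genes of the IGF axis, 2 were higher (median 0.04). IGF1, the growth factor that fibroblasts secrete, ran from -0.19 to 2.90 (median 1.44) against -4.47 to 1.20 (median -0.91) and rose by 2.55 ± 0.55 (adjusted p = 0.0171). IGFBP7, a binding protein of vessel and stromal matrix, rose by 1.47 ± 0.35 and kept its call in 6 of 20 leave-outs. IGF2 (1.65 ± 0.59) and IGFBP1 (-1.84 ± 1.38) did not pass. Neither gene was called without the 6 tumors that stood apart.

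In lists of general cell activity no gene passed the test, and most differences lay below 0. This held among 34 genes of mitosis and replication (median -0.18), 17 of hypoxia and glycolysis (-0.21), 37 cytosolic ribosomal proteins (-0.28) and 33 of oxidative phosphorylation (-0.10). Differences above 0 numbered 5, 4, 4 and 10 in these lists, against 51.5% of all genes tested. AURKB and CDT1, of mitosis and replication, differed by -0.49 ± 0.27 and -0.47 ± 0.36, and the glycolytic HK2 and PFKFB3 by -0.84 ± 0.56 and -0.78 ± 0.45. RPS25 differed by -0.69 ± 0.25 and NDUFS4 by -0.36 ± 0.22.

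The 9 tumors in between entered no test between the groups. Their mean was above that of the collagen-poor tumors in 229 of the 249 genes (92.0%), against 45.4% of all genes tested, a count that the low collagen-poor means of the 249 largely fix. Within these 9 tumors, whose score spans only -0.51 to 0.36, the 249 genes had a median r of 0.15 with the 4-gene mean, and 64.3% were positive, against 0.03 and 52.9% over all genes tested. The 10 genes with a symbol most like the 4-gene mean over these 9 tumors, chosen by that r, were MRC2 (r = 0.93), ABCC4 (0.92), EHBP1, COL12A1 and AADACL4 (each 0.91), GSDMA and FBXO15 (0.89), MSMP and ZP2 (0.88) and the microRNA gene cfa-mir-326 (0.87). Of these, MRC2 and COL12A1 were called between the groups, while MSMP differed by -0.03 and cfa-mir-326 by -0.24. ELN had an r of 0.05 over the same tumors and C6 of -0.64.

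The normal samples had higher values of most of these genes than the tumors. Their mean exceeded that of the collagen-rich tumors in 236 of the 249 genes (94.8%), against 51.2% of all genes tested, and fell below the collagen-poor mean in none. COL14A1 averaged 5.79 there, MYOCD 5.04 and PGM5 5.79. Among the exceptions, with a normal mean below the collagen-rich mean, were ADAMDEC1 (1.11 ± 1.20 in normals against 1.97 ± 1.10), VCAN (1.43 against 1.55) and IGFBP7 (-0.02 against 0.54). Normals and tumors also differ in background reads, as given above, and its part in this comparison was not tested.

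Since the scoring genes formed pairs, each gene was also fitted over all 29 tumors on the mean of COL1A1 and COL1A2 and the mean of DCN and LUM together, an analysis chosen after seeing the data. The r between these means was 0.60. With the other pair held fixed, 270 genes rose with COL1A1 and COL1A2 (1.40%) and 19 fell (0.0988%), while 54 rose with DCN and LUM (0.281%) and 4 fell (0.0208%). Of these, 4 genes rose with both. Slopes are log2 units per log2 unit of the pair.

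**Figure D5:**
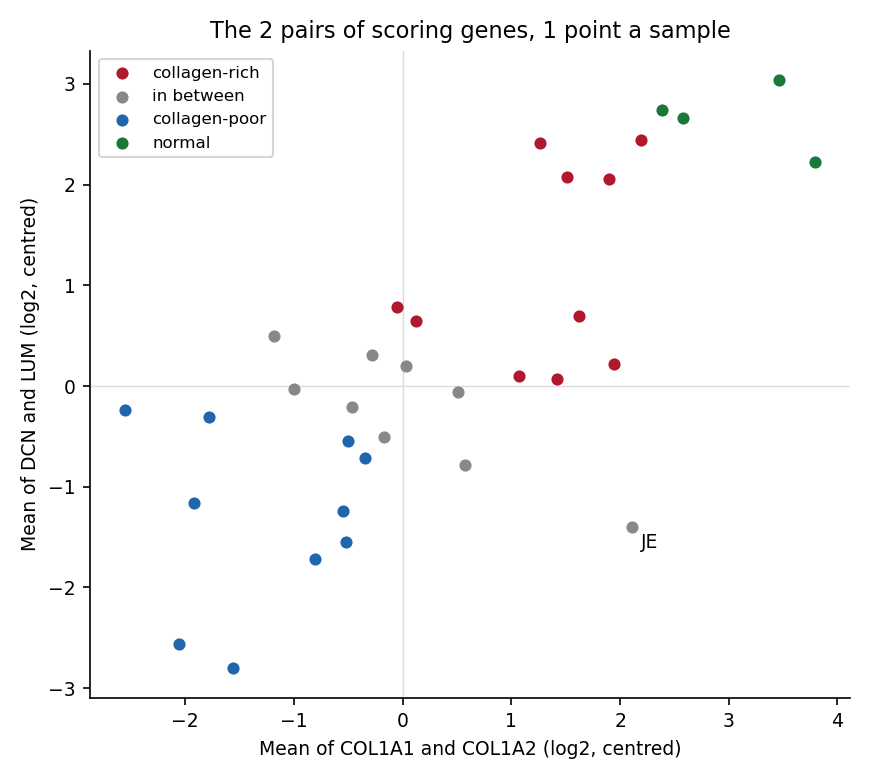
Mean of DCN and LUM (y axis) against the mean of COL1A1 and COL1A2 (x axis) in each sample, log2 and centred, coloured by group. The pairs rise together (r = 0.60 over 29 tumors), with tumor JE, at 2.11 and -1.40, farthest from that trend.

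The lists were counted on each slope. Of 19 basement membrane genes 9 had a positive slope on COL1A1 and COL1A2 and 2 on DCN and LUM, of 21 endothelial genes 11 and 0, and of 18 smooth muscle genes 8 and 0. Of 38 matrix glycoproteins the counts were 10 and 6, and of 29 fibroblast markers 9 and 4. Without the 6 tumors that stood apart the counts on type I collagen were 5, 0, 4, 3 and 2, and those on DCN and LUM 1, 0, 0, 1 and 3. The difference between the slopes passed in 3 basement membrane genes, 1 smooth muscle gene and 0 endothelial genes. COL4A1 and COL4A2, the main chains of type IV collagen, had slopes of 0.90 ± 0.12 (SE) and 0.84 ± 0.11 on COL1A1 and COL1A2 and of -0.36 ± 0.12 and -0.37 ± 0.12 on DCN and LUM. LAMA4, the laminin chain of vessels, had 1.01 ± 0.12 and -0.35 ± 0.12. Among the 8 steepest slopes on type I collagen that passed were also CPXM1 (1.04 ± 0.20), the pericyte gene CD248 (1.00 ± 0.16) and INHBA (1.01 ± 0.22), a subunit of activin. The others were LRRN1, TRABD2B, MXRA8 and EPHA7, with slopes from 1.01 to 1.07.

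The 8 steepest slopes on DCN and LUM that passed belonged to KERA (1.40 ± 0.16), LRRC7 (1.35 ± 0.25), HAND2 (1.30 ± 0.19), a mesenchymal transcription factor, ADAMDEC1 (1.24 ± 0.20) and BMP5 (1.22 ± 0.18). HHIP (1.20 ± 0.19), the hedgehog inhibitor, PEG3 (1.10 ± 0.12) and C6 (1.07 ± 0.17) completed them. Their slopes on type I collagen lay between -0.45 and 0.27, and none passed.

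The 2 slopes differed from each other in 12 genes, 10 steeper on type I collagen (0.0520%) and 2 steeper on DCN and LUM (0.0104%). The first included COL4A1 (difference 1.27 ± 0.22, adjusted p = 0.00799), COL4A2, LAMA4, MCAM, NES, SYNM, DYSF and LRRN1, and the second KERA (-1.85 ± 0.28, adjusted p = 0.00389). Without tumor JE none of the 12 passed, although the differences moved less, COL4A1 differing by 1.21 (adjusted p = 0.106) and KERA by -1.57 (adjusted p = 0.091), and 3 of 21 endothelial genes passed for a positive slope on type I collagen in place of 11. The slopes themselves moved less, from 0.76 to 0.72 in CDH5 and from 0.63 to 0.50 in KDR. Without JE the smooth muscle list had 10 such genes, the basement membrane list 7, the matrix glycoproteins 7 and the fibroblast markers 2. On DCN and LUM the matrix glycoproteins then had 2 and the fibroblast markers 3. Without tumor 5 the 10 genes steeper on type I collagen became 3, and without tumor 1 they became 5. Without the 6 tumors that stood apart 82 and 27 genes rose with the pairs, none was steeper on type I collagen and KERA alone was steeper on DCN and LUM.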

How the data were processed

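RNA-seq of 29 canine iUC and 4 normal bladder samples was used. The authors aligned paired-end reads to the canine genome in Strand NGS, normalized them by TMM or DESeq, took log2 and subtracted each gene's median, and deposited these log2 values. Total counts are unknown, so no counting interval can be given. The authors' DESeq-normalized table served as an alternative.

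Groups were formed from the TMM values as described, 10 against 10 tumors. Genes above the shared lowest value in at least 10 of 29 tumors were tested (19234 of 25096) with limma 3.58.1 in R 4.3.3, with Benjamini-Hochberg adjustment over all genes tested. A gene was called where the adjusted p did not exceed 0.05 and the difference reached 2-fold. No covariate was used. Values given with ± are SE for differences and slopes and SD for group means. Each tumor came from a separate dog, but the groups were chosen from the same libraries, so p-values are not independent of the choice. The members and gene lists were chosen with earlier results of these data known. Genes were named by rule: in each list up to 4 called genes per direction and up to 2 genes not called, those with the largest differences, the up to 10 largest rises and falls over all genes with a symbol whose direction holds in the authors' DESeq-normalized table, the 10 genes most like the score over the in-between tumors, and cell type markers. The genes with the steepest slopes, and those whose slopes differed, were added after seeing the data. The test was checked on simulated data, with independent normal values for each gene and groups fixed beforehand. That check does not cover groups chosen by measured values or genes at the shared lowest value. Alternatives were other normalizations, filters, pseudocounts, group sizes and scores, covariates, and each tumor left out. Symbols were taken from the deposited tables. Genes without a symbol (38 of the 249 called) were counted but not named. Some genes that the naming rule picks are not reported here.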

Additional observations from a re-analysis of the deposited data

Results flagged for a closer look

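In 49 of 599 groups of values examined (143 genes and 7 other measures, within groups of 4 to 10 samples), 1 sample lay far from the rest of its group. Chance alone marks about 1 in 20 groups. Their cause was not tested.

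Tumor Da6 stood apart from the other collagen-poor tumors upward in KRT14 (9.54), the T cell gene CD3E (3.79), the leukocyte mean (2.35), THY1 (2.07), VIM (1.31), CALD1 (0.93) and TPM2 (0.054). It stood apart downward in BMP5 (-6.28) and UPK1A (-4.65). Other collagen-poor tumors stood apart in MXRA8 (-6.09), EPCAM (1.79) and CCK (1.21).

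Tumor JE stood apart from the other in-between tumors upward in COL21A1 (4.01), INHBA (3.69), COL13A1 (3.60), KDR (2.99), LAMA4 (2.62), COL1A2 (2.00) and THY1 (1.98). It was lowest in HHIP (-4.94), LRRC7 (-3.98), BMP5 (-3.26) and DCN (-1.74). Tumor Ja stood apart in PI3 (4.56), C7 (3.05), PTN (1.70) and FAM83G (-2.21), and single in-between tumors in CPA3 (-3.48), ASPN (-3.19) and HK2 (-2.78).

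Among collagen-rich tumors, tumor 11 stood apart in IGF2 (4.69), LTBP2 (-4.48), COL23A1 (-2.27), NDUFS4 (-1.58) and MEDAG (-0.90). Tumor Sn, the lowest-ranked of the group, stood apart in TRIM29 (-3.87), CD59 (-1.26), COL14A1 (-0.85) and RPS25 (0.56). Tumor Sp stood apart in LRRC7 (-3.98) and cfa-mir-326 (2.75), tumor 7 in NDUFA4L2 (2.94) and MMP23B (-1.25), and tumor Za in AURKB (-1.54). In tumor Po 86.9% of olfactory receptor genes were above the lowest value, the next collagen-rich tumor having 47.4%. Of the normal samples, D was lowest in UPK3A (-3.20), CDH1 (-2.93) and UPK2 (-2.14) and C in COL12A1 (-0.41).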

How the results depend on the processing

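The 249 genes called higher became 391 with a slope over 29 tumors, 144 with 14 against 14 tumors, 49 without the 6 tumors that stood apart, 152 with the leukocyte covariate and 0 with the smooth muscle covariate (limma, 1444 genes at an unadjusted p under 0.05). Leaving out each tumor gave 177 (tumor Po) to 427 (tumor Da6). In alternatives chosen after seeing the data, scoring by DCN and LUM alone gave 50 and leaving out the 3 tumors with the highest olfactory share 125. The 1 gene called lower became 5 by adjusted p alone, 0 with 29 tumors in 3 groups, 4 with 7 against 7 tumors, 2 with 14 against 14, 9 scored without DCN, 3 without LUM, 2 with the olfactory covariate, 0 without the 6 tumors, 4 with quality weights, 0 with the muscle covariate, 2 with the leukocyte covariate, 13 by COL1A1 and COL1A2 alone and 0 by DCN and LUM alone, and 1 to 5 on leaving out each tumor. FAM83G was not among the genes called with 7 against 7 or 14 against 14 tumors, scored without DCN or by COL1A1 and COL1A2 alone, or with the leukocyte covariate. MYH11, a member of the muscle covariate, turned to -0.0559 with it. The cause of these changes was not tested.

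For the slopes, leaving out the 6 tumors gave 82 genes that rose and 2 that fell with COL1A1 and COL1A2, 27 and 0 with DCN and LUM, and 0 steeper and 1 less steep on type I collagen. The DESeq-normalized table gave 31 that fell with COL1A1 and COL1A2. Leaving out each tumor gave 148 to 307 and 1 to 48 genes for type I collagen, 38 to 68 and 1 to 12 for DCN and LUM, and 0 to 21 steeper and 0 to 6 less steep on type I collagen. Of 51 named genes called, 35 kept their call whichever tumor was left out. Of the 50 called higher, 15 kept it without the 6 tumors, 11 scored by DCN and LUM alone and 0 with the muscle covariate. Depth is unknown, and genes at the shared lowest value have folds that depend on it. No paired analysis was possible because each tumor came from a separate dog.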
